A study of Mus musculus with 12 samples.

Results

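The genes described here are 6 mouse genes of the MHC class I family: H2-K1 and H2-D1, which encode classical class I heavy chains; H2-M2 and H2-M3, which encode nonclassical heavy chains of the M region of the MHC; and Cd1d1 and Mr1, class I-like genes outside the MHC. They were listed by name and read from RNA of type 1 conventional dendritic cells (cDC1), taking for each gene the brightest array probe set that carries its symbol alone. By that rule 4 of the 6 genes were measured alone, among 19938 genes measured in this way: H2-M2 (probe set 10450880, chromosome 17), H2-M3 (probe set 10445119, chromosome 17), Cd1d1 (probe set 10499160, chromosome 3) and Mr1 (probe set 10358982, chromosome 1). H2-K1 and H2-D1 were not measured alone. They share 2 probe sets, 10444780 and 10450075, each of which lists H2-K1, H2-D1 and a further class I gene, LOC547349, so their separate levels are not known here. H2-M2 was listed because of its large rise in lymph node, so its tissue difference is given as a description with no test. The other members and the gene lists below were also chosen with earlier results of these data known. That limits what their p-values and counts can show.

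Class I molecules present on the cell surface what has been loaded inside the cell. H2-K and H2-D carry peptides to CD8 T cells, H2-M3 carries peptides that begin with N-formylmethionine, CD1d carries lipids to natural killer T cells, and MR1 carries vitamin B metabolites to mucosal-associated invariant T cells. Most heavy chains of the class I family need beta-2 microglobulin to fold. cDC1 are the dendritic cells best known for showing captured antigen on class I to CD8 T cells. When dendritic cells leave the skin for a lymph node they mature and change much of their gene expression.

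The cells came from unimmunised C57BL/6 mice and were measured on 12 arrays, in 4 groups of 3: skin-draining lymph node Cre, lymph node control, spleen Cre and spleen control. Both Cd40 alleles were floxed in every mouse, the controls included. Cre mice also carried 1 Xcr1-Cre allele, which drives Cre in cells that express Xcr1 and is meant to delete Cd40 in cDC1, and control mice had 2 unmodified Xcr1 alleles. Both populations were sorted as B220-negative, Sirpa-negative, XCR1-positive cells high for MHC class II, with intermediate CD11c for migratory cDC1 of the lymph node and high CD11c for cDC1 of the spleen. XCR1 was thus both a gate and the site of the Cre allele. The labels do not say whether replicates came from separate animals; p-values thus describe no more than how far these arrays spread.

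The deposited values are array intensities with medians of 66.1 to 74.4 per array, and the highest mean of 3 Y-linked genes, which female cells lack, set a background of 19.6. Genes were called at an adjusted p under 0.05. Of 7 measured markers of migratory dendritic cells, 7 were higher in lymph node than in spleen in Cre mice and in control mice; Ccr7, the receptor that guides these cells to lymph nodes, measured 7339 to 9556 in lymph node and 2329 to 3668 in spleen. Of 10 cDC1 markers, 8 were lower in lymph node and 1, Batf3, was higher, and Xcr1 itself measured 203 to 286 in lymph node and 1945 to 3508 in spleen. Cd40, the targeted gene, went against the genotype labels in replicate 3. In lymph node it measured 1427, 1388 and 3358 on arrays labelled Cre and 2138, 2777 and 1542 on arrays labelled control, for replicates 1, 2 and 3. In spleen it measured 365, 214 and 569 on arrays labelled Cre and 572, 525 and 309 on arrays labelled control. Of 6 measured T cell markers of 8 listed, 4 were higher and 1 lower in lymph node in both genotypes. Among all genes 13.1% were called higher and 15.2% lower in Cre, and 12.9% and 13.2% in control. The T cell markers summed to 879 to 1744 in lymph node Cre and 1035 to 1646 in lymph node control. In spleen they summed to 756 to 938 in Cre and 837 to 889 in control. Their part in the tissue results was not tested. "Cre" and "control" below therefore mean the library labelled so, and the comparisons were also made without replicate 3.

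Class I genes are known to be driven by a short upstream region with an NF-kB site, an interferon response element and an X box and CCAAT box module to which NLRC5 and the RFX and NF-Y factors are recruited. The RefSeq promoter windows used here matched 5 of the 6 genes, all but Cd1d1, and the 250 bases before each start site on GRCm38.p6 are printed 5′ to 3′ because the genes differed in which of these motifs they hold. Capitals mark matches on either strand to the interferon response element core GAANNGAAA, the class I X box TGACGC, the sequence CCAAT or the NF-kB consensus, and adjoining or overlapping matches run together. The windows are H2-M2 at chr17:37483555-37483804 (minus strand), H2-M3 at chr17:37269984-37270233 (plus strand), H2-K1 at chr17:34000348-34000597 (minus strand, the more upstream of 2 annotated starts), H2-D1 at chr17:35262844-35263093 (plus strand) and Mr1 at chr1:155146815-155147064 (minus strand).
H2-M2: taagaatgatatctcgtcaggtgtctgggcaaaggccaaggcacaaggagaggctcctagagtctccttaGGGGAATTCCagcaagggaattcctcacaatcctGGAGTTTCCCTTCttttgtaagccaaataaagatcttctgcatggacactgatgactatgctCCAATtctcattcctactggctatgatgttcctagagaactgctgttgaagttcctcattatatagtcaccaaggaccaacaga
H2-M3: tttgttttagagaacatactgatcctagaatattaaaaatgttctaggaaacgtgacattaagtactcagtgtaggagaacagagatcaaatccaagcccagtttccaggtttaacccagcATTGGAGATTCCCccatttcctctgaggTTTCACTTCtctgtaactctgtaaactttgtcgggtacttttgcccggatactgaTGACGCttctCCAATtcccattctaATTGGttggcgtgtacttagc
H2-K1: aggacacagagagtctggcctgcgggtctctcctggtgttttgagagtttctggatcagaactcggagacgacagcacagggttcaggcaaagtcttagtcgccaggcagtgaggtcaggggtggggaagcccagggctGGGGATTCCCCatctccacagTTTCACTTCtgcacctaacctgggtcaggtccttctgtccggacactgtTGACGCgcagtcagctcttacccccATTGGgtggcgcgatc
H2-D1: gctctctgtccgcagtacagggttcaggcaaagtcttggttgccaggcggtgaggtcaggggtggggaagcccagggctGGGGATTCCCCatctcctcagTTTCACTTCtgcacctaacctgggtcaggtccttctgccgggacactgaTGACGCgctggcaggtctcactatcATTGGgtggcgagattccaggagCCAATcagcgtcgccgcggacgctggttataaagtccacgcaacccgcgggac
Mr1: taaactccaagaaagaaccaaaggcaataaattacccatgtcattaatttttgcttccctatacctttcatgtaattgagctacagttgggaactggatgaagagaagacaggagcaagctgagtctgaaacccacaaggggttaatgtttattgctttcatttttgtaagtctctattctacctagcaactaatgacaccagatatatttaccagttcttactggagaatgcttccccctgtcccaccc

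H2-K1, H2-D1 and H2-M3 each held all 4 motifs in the same order, with the NF-kB match farthest from the start, then GAANNGAAA, then TGACGC, with a CCAAT nearest. GAANNGAAA lay at -90 to -82 in H2-K1, at -150 to -142 in H2-D1 and at -101 to -93 in H2-M3, counted back from the start site, and TGACGC lay at -41 to -36, -101 to -96 and -46 to -41 in the same genes. In H2-M3 a further CCAAT match at -129 to -125 overlapped the NF-kB match at -126 to -117. H2-M2 held NF-kB matches at -180 to -171 and at -146 to -137, the second of which overlapped GAANNGAAA at -142 to -134, and CCAAT at -84 to -80, while TGACGC was not in this window. The Mr1 window held none of the 4. Over 32851 such windows of all genes, 6.31% held GAANNGAAA, 6.12% TGACGC, 33.8% CCAAT and 3.90% the NF-kB consensus. A match describes the letters only.

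**Figure D1:**
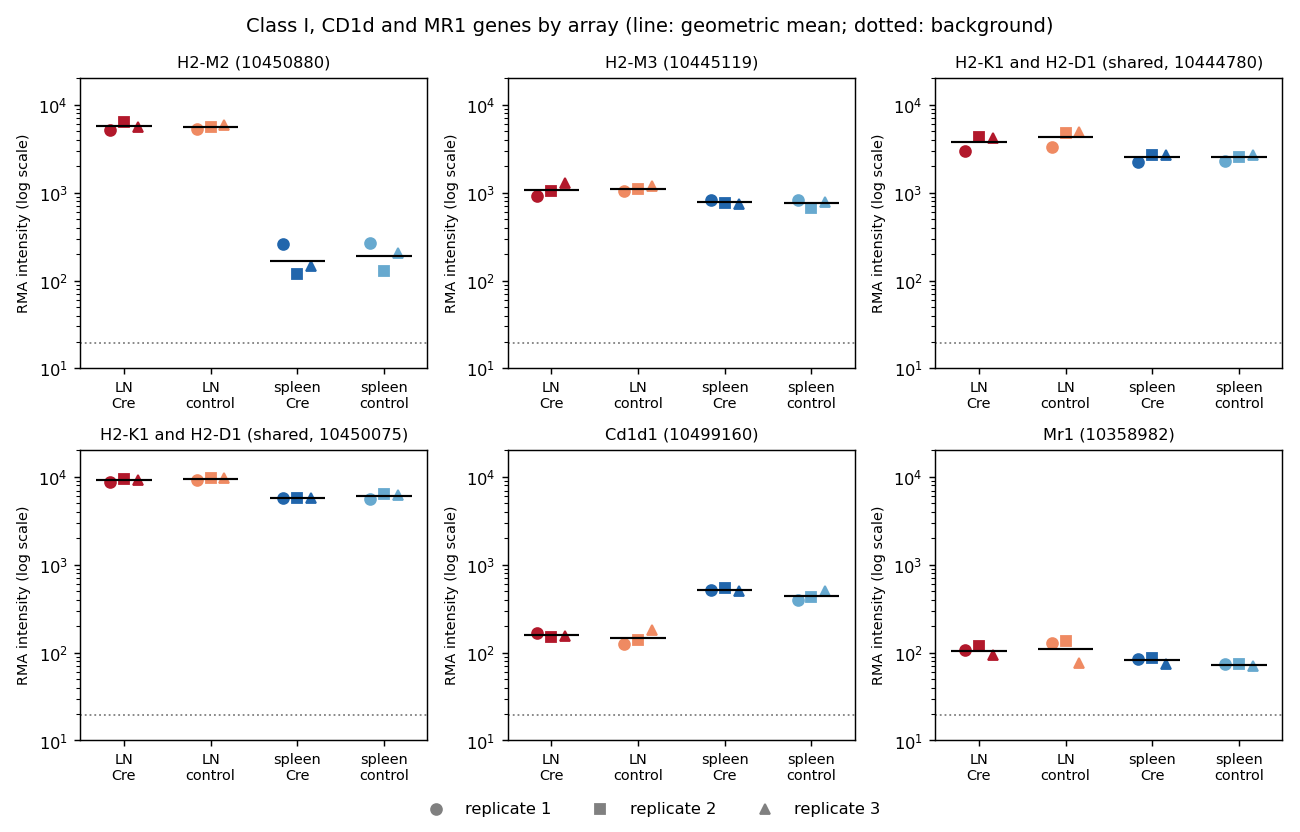
Intensity of each probe set on a log axis, by array, in lymph node (LN) Cre, LN control, spleen Cre and spleen control; points are arrays, shapes are replicate numbers, black lines are geometric means and the dotted line is the background of 19.6. H2-M2 lies at 5220 or above in lymph node and at 269 or below in spleen, and Cd1d1 runs the other way. All 6 probe sets stay above background on all 12 arrays. That background is low: 18080 of 19938 genes passed it on all arrays of at least 1 group. Mr1 in spleen, at 70.3 to 87.0, lies near the array medians of 66.1 to 74.4.

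H2-M2 was high in lymph node cDC1 and low in spleen cDC1, whichever genotype the arrays were labelled with. It measured 5220, 6417 and 5583 in lymph node Cre and 5330, 5630 and 5965 in lymph node control, for replicates 1, 2 and 3. It measured 262, 118 and 146 in spleen Cre and 269, 128 and 205 in spleen control. Lymph node and spleen did not overlap in either genotype, while Cre and control overlapped in each tissue. Lymph node lay wholly higher for 22.4% of all genes in Cre and 19% in control. H2-M2 was chosen for its rise in lymph node, so its lack of overlap between tissues is no separate result. Mean intensities were 5740 ± 614 and 5641 ± 318 in lymph node Cre and control, and 175 ± 76.3 and 201 ± 71.0 in spleen Cre and control (SD, n = 3 each).

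The ratio of geometric means for H2-M2, lymph node over spleen, was 34.6 in Cre and 29.4 in control. As log2 differences these were 5.11 and 4.88, ranking 3 and 6 from the highest of 19938 genes. The size varied with the replicate number: the ratio was 19.9, 54.5 and 38.3 for numbers 1, 2 and 3 in Cre, and 19.8, 44.1 and 29.2 in control. Most of that variation lay in spleen, where replicate 1 was the highest array of both genotypes and replicate 2 the lowest. Without replicate 1 the log2 differences were 5.51 in Cre and 5.16 in control, and without replicate 3, the number in which Cd40 went against the labels, they were 5.04 and 4.88. In these bulk samples, fewer cells expressing a gene and less RNA of it per cell cannot be told apart.

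H2-M3, the heavy chain that presents N-formylated peptides, was modestly higher in lymph node. It measured 911, 1050 and 1278 in lymph node Cre, against 818, 759 and 750 in spleen Cre. In control mice it measured 1059, 1114 and 1178 in lymph node, against 824, 673 and 778 in spleen. Every lymph node array lay above every spleen array, as for 22.4% of all genes in Cre and 19% in control. The ratio was 1.38 in Cre, a log2 difference of 0.46 (SE 0.15, limma adjusted p = 0.0351), and 1.48 in control, a log2 difference of 0.56 (SE 0.15, limma adjusted p = 0.0130). The calls rested on few arrays. In Cre it was lost without lymph node Cre replicate 2 (adjusted p = 0.0657) or 3 (0.158), spleen Cre replicate 2 (0.103) or 3 (0.112), lymph node control replicate 2 (0.0501) or spleen control replicate 3 (0.0505), without all of replicate 2 (0.270) or 3 (0.443), and with array medians centred (0.0901). In control it was lost without lymph node control replicate 3 (0.0508), spleen control replicate 2 (0.0712), or all of replicate 2 (0.265) or 3 (0.180).

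Both probe sets shared by the classical genes H2-K1 and H2-D1, which present peptides to CD8 T cells, read higher in lymph node. Which of the genes listed on them rose is not known. On probe set 10450075, which lists H2-K1 first, intensity was 8736, 9489 and 9248 in lymph node Cre, against 5684, 5688 and 5685 in spleen Cre. In control it was 9194, 9814 and 9608 in lymph node, against 5613, 6368 and 6270 in spleen. The 3 spleen Cre arrays were nearly equal. The tissues did not overlap, and lymph node lay wholly higher for 22.4% of the genes measured alone in Cre and 19% in control. The ratio was 1.61 in Cre, a log2 difference of 0.69 (SE 0.08, limma adjusted p = 2.72e-05), and 1.57 in control, a log2 difference of 0.65 (SE 0.08, limma adjusted p = 4.56e-05). Shared probe sets were tested in a fit of all 28853 probe sets, a step chosen after seeing the data, in which 23.9% were called in Cre (11.1% higher) and 21.8% in control (10.8% higher). This probe set was called under all 19 alternatives in both genotypes.

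Probe set 10444780, which lists H2-D1 first, moved the same way with more spread. It measured 2979, 4276 and 4235 in lymph node Cre, against 2250, 2682 and 2661 in spleen Cre. In control it measured 3319, 4769 and 4876 in lymph node, against 2284, 2576 and 2717 in spleen. Replicate 1 was the lowest array of all 4 groups. The tissues did not overlap here either, a pattern of 22.4% of the genes measured alone in Cre and 19% in control. The ratio was 1.5 in Cre, a log2 difference of 0.58 (SE 0.18, limma adjusted p = 0.0275), and 1.69 in control, a log2 difference of 0.76 (SE 0.18, limma adjusted p = 0.00630). In Cre the call was lost without lymph node Cre replicate 2 (adjusted p = 0.0966) or 3 (0.105), without spleen Cre replicate 1 (0.0904), 2 (0.0526) or 3 (0.0553), without all of replicate 2 (0.238) or 3 (0.244), and with array medians centred (0.0967). In control it was lost without all of replicate 2 (0.124) or 3 (0.131).

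Cd1d1, which encodes the lipid-presenting molecule seen by natural killer T cells, was about 3-fold lower in lymph node. It measured 169, 152 and 156 in lymph node Cre, against 512, 545 and 496 in spleen Cre. In control it measured 126, 138 and 183 in lymph node, against 397, 425 and 507 in spleen. The highest lymph node array lay well below the lowest spleen array; 18.7% of all genes in Cre and 17.3% in control lay lower without overlap. Intensity was 3.25-fold lower in lymph node Cre, a log2 difference of -1.70 (SE 0.16, limma adjusted p = 1.83e-06), and 3.0-fold lower in lymph node control, a log2 difference of -1.59 (SE 0.16, limma adjusted p = 3.61e-06). The call held under all 21 alternatives in both genotypes. Cd1d2, the neighbouring copy of Cd1d1 in the mouse, lay between 157 and 253 in every group and its log2 difference was -0.05 in Cre (SE 0.19, limma adjusted p = 0.866) and -0.11 in control (SE 0.19, limma adjusted p = 0.787).

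Some markers of other cells that are known to carry CD1d were also lower in lymph node, and most were not called. The summed intensity of 8 measured macrophage and monocyte markers of 10 listed was 625 to 638 in lymph node Cre and 647 to 657 in lymph node control, against 2771 to 2891 in spleen Cre and 2535 to 2830 in spleen control. Of the 8, 3 were lower in lymph node in Cre (Lyz2, Cd68 and Csf1r) and 2 in control (Lyz2 and Cd68). Among all genes 15.2% were called lower in Cre and 13.2% in control. The other markers, 5 in Cre and 6 in control, were not called, among them C1qa, C1qb and Fcgr1. Most of the spleen sum came from Cd68, a lysosomal protein of phagocytes, at 213 to 286 in lymph node Cre and 179 to 312 in lymph node control, against 1292 to 1554 in spleen Cre and 995 to 1467 in spleen control, and from Lyz2, lysozyme, at 59.9 to 97.1 in lymph node Cre and 55.4 to 119 in lymph node control, against 886 to 1184 in spleen Cre and 931 to 1182 in spleen control. The macrophage genes Adgre1 (29.5 to 48.4) and Mertk (28.6 to 41.0) were near background in all groups. Of 8 listed B cell markers, 7 were measured. They summed to 317 to 381 in lymph node Cre and 297 to 375 in lymph node control. In spleen they summed to 497 to 560 in Cre and 448 to 509 in control. In both genotypes 1 of the 7, Ms4a1, was lower in lymph node and 6 were not called. That is near the rate over all genes, 15.2% lower in Cre and 13.2% in control. Ms4a1 measured 32.7 to 40.5 in lymph node Cre and 32.1 to 39.3 in lymph node control. In spleen it measured 187 to 251 in Cre and 125 to 207 in control. The B cell receptor gene Cd79a lay between 21.9 and 32.5 on all arrays. The sort had taken B220-negative, Sirpa-negative cells, gates meant to remove B cells and most macrophages and monocytes. The part of such cells in the Cd1d1 result was not tested.

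Mr1, which presents vitamin B metabolites, was higher in lymph node in control mice and did not pass in Cre mice. It measured 106, 119 and 93.0 in lymph node Cre, against 84.4, 87.0 and 74.4 in spleen Cre. In control it measured 127, 134 and 76.9 in lymph node, against 73.4, 73.3 and 70.3 in spleen. Within each genotype every lymph node array lay above every spleen array, as for 22.4% of all genes in Cre and 19% in control. In control the lymph node array of replicate 3 came close to the spleen arrays. The ratio was 1.29 in Cre, a log2 difference of 0.37 that did not pass (SE 0.18, 95% interval -0.02 to 0.75, limma adjusted p = 0.153), and 1.51 in control, a log2 difference of 0.60 (SE 0.18, limma adjusted p = 0.0227). In Cre the difference passed with the replicate number as a block (adjusted p = 0.0372) and without lymph node control replicate 3 (0.0297). In control it was lost without lymph node control replicate 1 (0.0863) or 2 (0.113), spleen control replicate 2 (0.0573) or 3 (0.0694), or all of replicate 1 (0.0950) or 2 (0.268).

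Of the 3 genes measured alone other than H2-M2, 2 were thus called between tissues in Cre, H2-M3 higher and Cd1d1 lower, where 28.3% of all 19938 genes were called. In control, 3 of 3 were called, against 26.1% of all genes. Whether the tissue difference itself depended on genotype was tested as an interaction, and 0% of genes were called there (0 of 19938, with 326 at an unadjusted p under 0.05). The 2 tissue comparisons share no arrays, but all 12 arrays gave 1 estimate of the spread.

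No member was called between arrays labelled Cre and arrays labelled control, in either tissue. By limma 0% of genes were called in each tissue (0 of 19938, with 402 in lymph node and 357 in spleen at an unadjusted p under 0.05). In lymph node the log2 difference, Cre minus control, was 0.02 for H2-M2 (95% interval -0.59 to 0.64), -0.06 for H2-M3 (-0.39 to 0.27), 0.12 for Cd1d1 (-0.22 to 0.46) and -0.05 for Mr1 (-0.44 to 0.33). In spleen it was -0.21 for H2-M2 (95% interval -0.83 to 0.40), 0.04 for H2-M3 (-0.29 to 0.37), 0.23 for Cd1d1 (-0.11 to 0.57) and 0.18 for Mr1 (-0.21 to 0.56). Without replicate 3, whose Cd40 went against the labels, the lymph node differences were 0.079 for H2-M2, -0.15 for H2-M3, 0.29 for Cd1d1 (SE 0.20) and -0.22 for Mr1 (SE 0.15). The spleen differences without it were -0.078 for H2-M2, 0.082 for H2-M3, 0.36 for Cd1d1 (SE 0.20) and 0.22 for Mr1 (SE 0.15), and none was called. For replicates 1, 2 and 3 the Cre over control ratio of Cd1d1 was 1.34, 1.11 and 0.857 in lymph node, and in spleen it was 1.29, 1.28 and 0.980, so it was above 1 in replicates 1 and 2 and below 1 in replicate 3 in both tissues. That of Mr1 was 0.832, 0.888 and 1.21 in lymph node, below 1 in replicates 1 and 2 and above 1 in replicate 3, and 1.15, 1.19 and 1.06 in spleen. With all replicates, the intervals of H2-M2 hold a change of over 1.5-fold in lymph node and in spleen, but both use 1 spread from all 12 arrays. The log2 SD of H2-M2 was 0.15 in lymph node Cre and 0.08 in lymph node control. In spleen it was 0.60 in Cre and 0.55 in control. The lymph node interval thus takes much of its width from the spleen arrays.

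The narrowest interval was that of the shared probe set 10450075, which lists H2-K1 first, at -0.23 to 0.11 around -0.06 in lymph node and -0.27 to 0.08 around -0.10 in spleen. For probe set 10444780 it was -0.55 to 0.21 around -0.17 in lymph node and -0.38 to 0.38 around 0.00 in spleen. Cre and control arrays overlapped in each of these comparisons but 1: the 3 spleen Cre values of Mr1 (74.4 to 87.0) lay above the 3 spleen control values (70.3 to 73.4), as did those of 2.68% of all genes. Spleen Cre lay wholly below spleen control for 4.96% of genes, and lymph node Cre wholly above lymph node control for 2.01% and wholly below it for 2.71%. No genotype result of any member was called under any alternative.

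**Figure D2:**
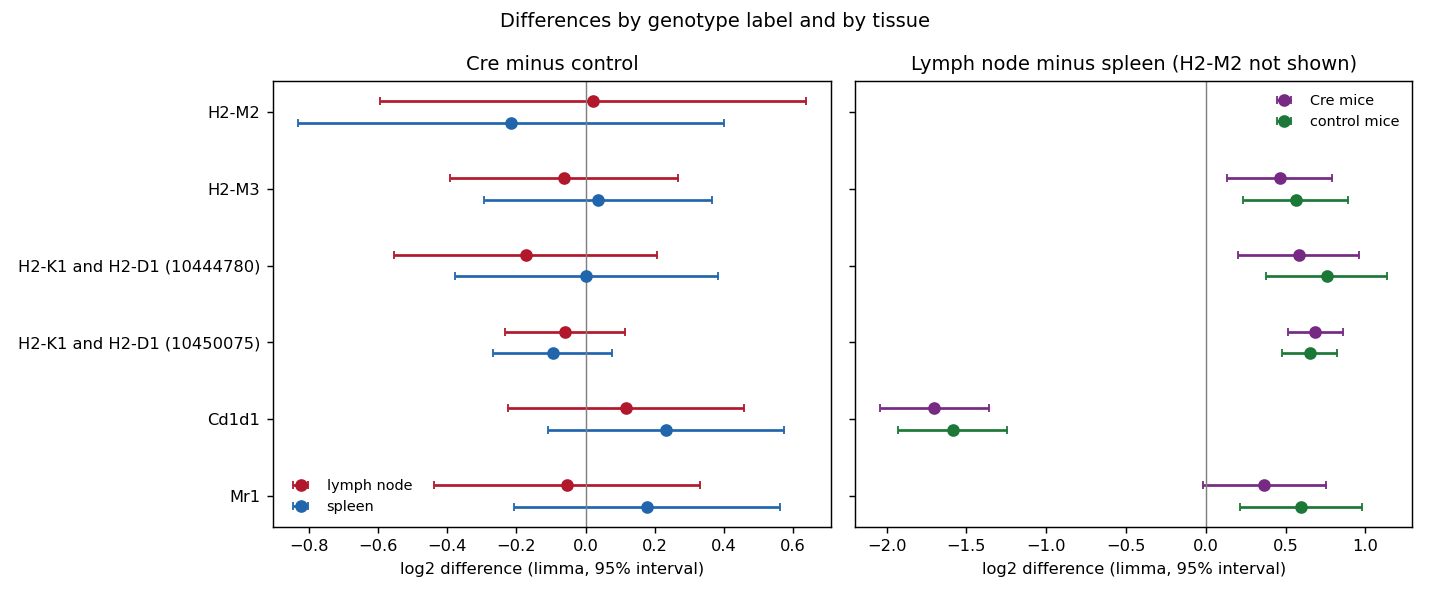
Log2 differences with 95% intervals from limma, Cre minus control (left; lymph node, then spleen) and lymph node minus spleen (right; Cre, then control), for the 4 genes measured alone and the 2 shared probe sets. Every interval on the left holds 0; on the right Cd1d1 lies at -1.70 in Cre and -1.59 in control, and H2-M2 is not shown because it was chosen by that difference.

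Within groups, several members followed the replicate number, which the labels repeat in every group. On probe set 10444780 of H2-K1 and H2-D1, replicate 1 deviated from its group mean by -0.34 in lymph node Cre, -0.36 in lymph node control, -0.17 in spleen Cre and -0.14 in spleen control, on the log2 scale. Mr1 was lowest in replicate 3 of all 4 groups. H2-M2 followed the number in spleen, where replicate 1 was highest and replicate 2 lowest in both genotypes; in lymph node replicate 1 was the lowest array of both genotypes. Over 12 arrays, deviations from the group means had a Pearson r of 0.72 between the 2 shared probe sets, -0.70 between Cd1d1 and Mr1, and 0.53 between H2-M2 and H2-M3. These were the 3 largest in size among all pairs of members, and the rest ran from -0.34 to 0.42. These values describe arrays that share replicate numbers across groups.

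**Figure D3:**
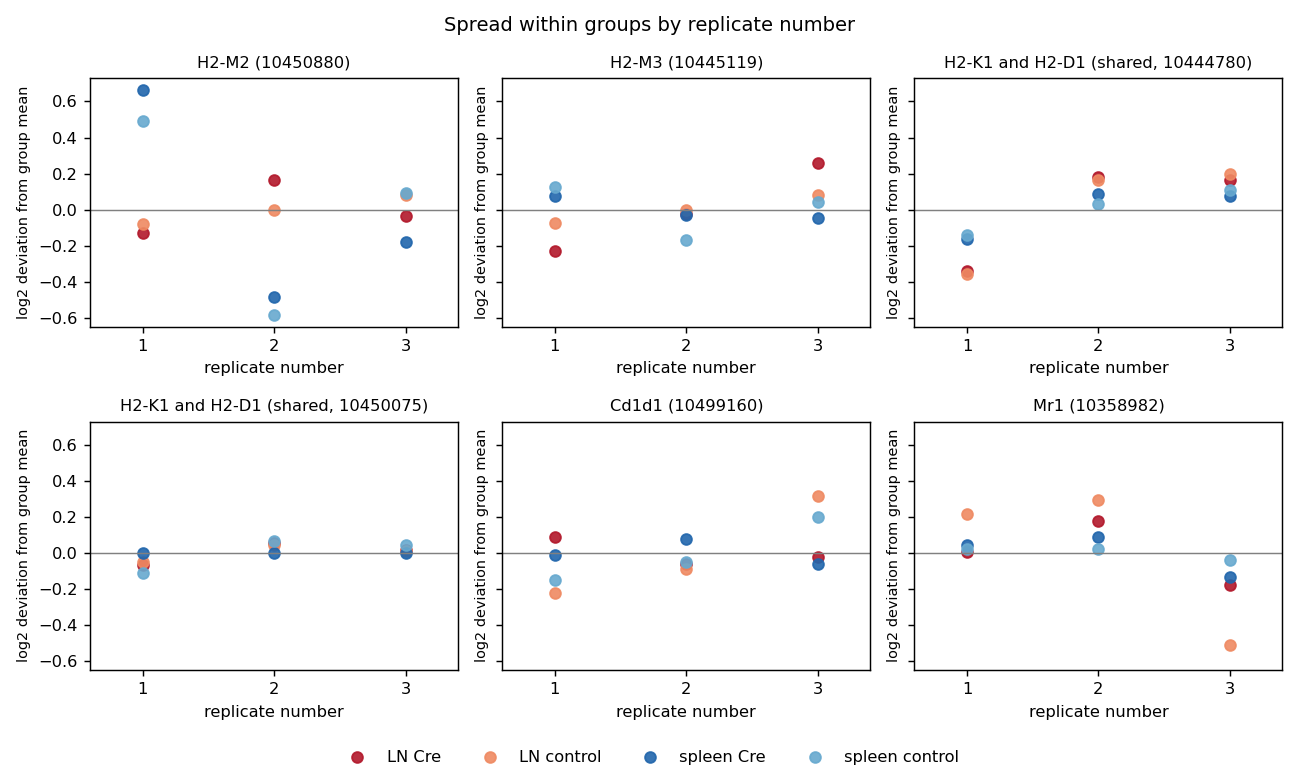
Deviation of each array from its group mean on the log2 scale, by replicate number; colours are lymph node (LN) Cre, LN control, spleen Cre and spleen control. All 4 replicate 1 arrays lie below 0 on probe set 10444780, all 4 replicate 3 arrays lie below 0 for Mr1, and the spleen arrays of H2-M2 spread most.

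Other genes of the class I family behaved unevenly. Of 33 listed, 22 were measured alone; 7 were found only on probe sets that carry other symbols too. Between tissues, 8 of 22 rose and 3 fell in lymph node Cre relative to spleen Cre, with 11 not called and a median log2 difference of 0.17, where all genes had a median of 0.07, 13.1% were called higher and 15.2% lower. In control 7 rose, 3 fell and 12 were not called, with a median of 0.02, where all genes had 0.03, and 12.9% were called higher and 13.2% lower. H2-Q4, H2-T10, H2-Q5 and Hfe had the greatest differences in both genotypes. H2-Q4, a nonclassical Q region gene, rose by 1.64 on the log2 scale in Cre (SE 0.39, limma adjusted p = 0.00539) and by 1.88 in control (0.00209). H2-T10, a T region gene that binds gamma-delta T cell receptors, rose by 1.53 (adjusted p = 2.23e-05) and 1.76 (6.07e-06), and H2-Q5 rose by 1.43 (adjusted p = 2.42e-05) and 1.59 (9.76e-06).

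Hfe, a class I-like regulator of iron uptake, fell, with a log2 difference of -2.26 in Cre (SE 0.22, limma adjusted p = 2.87e-06) and -2.25 in control (adjusted p = 3.14e-06). It measured 51.9 to 88.4 in lymph node Cre and 54.9 to 86.2 in lymph node control, against 321 to 374 in spleen Cre and 261 to 403 in spleen control. B2m, the light chain of most class I molecules and singled out after its values were seen, rose by 0.77 in Cre (SE 0.09, limma adjusted p = 2.51e-05) and 0.60 in control (adjusted p = 0.000245). It measured 12228 to 12938 in lymph node Cre and 11609 to 12150 in lymph node control, against 7096 to 7891 in spleen Cre and 7268 to 8590 in spleen control. Some class I genes are close in sequence to each other, so a probe set listed for 1 of them may read more than 1 gene. Of 9 listed ligands of NKG2D, 2 were measured, Raet1d and H60b, and neither was called. Raet1d measured 13.4 to 18.8, below the background of 19.6 on all arrays, and H60b measured 25.6 to 40.4.

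Among factors that control class I transcription, 11 of 13 were measured; 4 rose and 1 fell in lymph node in Cre (median 0.48, where 13.1% of all genes were called higher and 15.2% lower), and 6 rose and 1 fell in control (median 0.61, where 12.9% of all genes were higher and 13.2% lower). Irf1, the interferon regulatory factor that binds the interferon response element, measured 1239, 1813 and 2234 in lymph node Cre and 1510, 2136 and 2236 in lymph node control. In spleen it measured 238, 207 and 291 in Cre and 251, 272 and 268 in control. It rose by 2.82 on the log2 scale in Cre (SE 0.22, limma adjusted p = 3.53e-07) and 2.87 in control (adjusted p = 3.07e-07). Rfxank, a subunit of the RFX complex at the X box, rose by 1.39 (adjusted p = 3.95e-06) and 1.45 (2.85e-06). Nlrc5, the class I transactivator, rose by 1.18 (SE 0.34, adjusted p = 0.0178) and 1.08 (0.0304), and Rela, an NF-kB subunit, by 0.96 (SE 0.30, adjusted p = 0.0272) and 0.89 (0.0426). The 1 that fell was Rfxap, another RFX subunit, named after its values were seen, at -0.96 in Cre (SE 0.15, adjusted p = 0.000250) and -0.88 in control (adjusted p = 0.000532).

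Of 14 genes of class I peptide loading, all measured, 4 rose and 3 fell in lymph node in Cre (median 0.23), against 13.1% higher and 15.2% lower among all genes. In control 6 rose and 3 fell (median 0.37), against 12.9% and 13.2% of all genes. Tapbpl, the peptide editor TAPBPR, rose by 1.82 in Cre (SE 0.19, limma adjusted p = 6.70e-06) and 1.99 in control (adjusted p = 3.01e-06). Psme2, a proteasome activator subunit, rose by 0.98 (adjusted p = 7.61e-05) and 1.02 (5.35e-05), and Psmb10, an immunoproteasome subunit, by 0.80 (0.00571) and 0.94 (0.00176). Psme3, which encodes the other, nuclear proteasome activator, fell, with a difference of -0.87 in Cre (SE 0.13, adjusted p = 0.000110) and -0.72 in control (adjusted p = 0.000549). Tapbp, the tapasin gene, had a log2 difference of 1.05 in control that did not pass (SE 0.39, adjusted p = 0.0637).

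Genes that load and traffic lipids for CD1d were measured for 13 of 14. In Cre 2 rose and 5 fell in lymph node (median -0.27), and in control 2 rose and 5 fell (median -0.09). Among all genes 13.1% were higher and 15.2% lower in Cre, and 12.9% and 13.2% in control, so the 2 of 13 that rose are near the rate over all genes. Gm2a, the GM2 activator, a lipid transfer protein of the lysosome, measured 896, 1197 and 829 in lymph node Cre, against 6279, 7779 and 7650 in spleen Cre. In control it measured 603, 829 and 772 in lymph node, against 5998, 6906 and 7538 in spleen. Its log2 difference was -2.91 in Cre (SE 0.17, limma adjusted p = 3.42e-08) and -3.22 in control (adjusted p = 1.41e-08), in the same direction as Cd1d1. Hexa, a lysosomal hexosaminidase subunit, fell as well (-1.41 in Cre, adjusted p = 2.92e-05, and -1.17 in control, adjusted p = 0.000158), and Psap, the precursor of the saposins, did too (-1.11 in Cre, adjusted p = 0.00659, and -1.03 in control, adjusted p = 0.0108). Ap3s1, an adaptor complex subunit, fell in both genotypes (-0.62 in Cre, adjusted p = 0.00279, and -0.57 in control, adjusted p = 0.00513). Npc2, a lysosomal cholesterol carrier, rose in both (0.60 in Cre, adjusted p = 0.00163, and 0.68 in control, adjusted p = 0.000627). No gene of these 5 lists was called between Cre and control in either tissue.

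**Figure D4:**
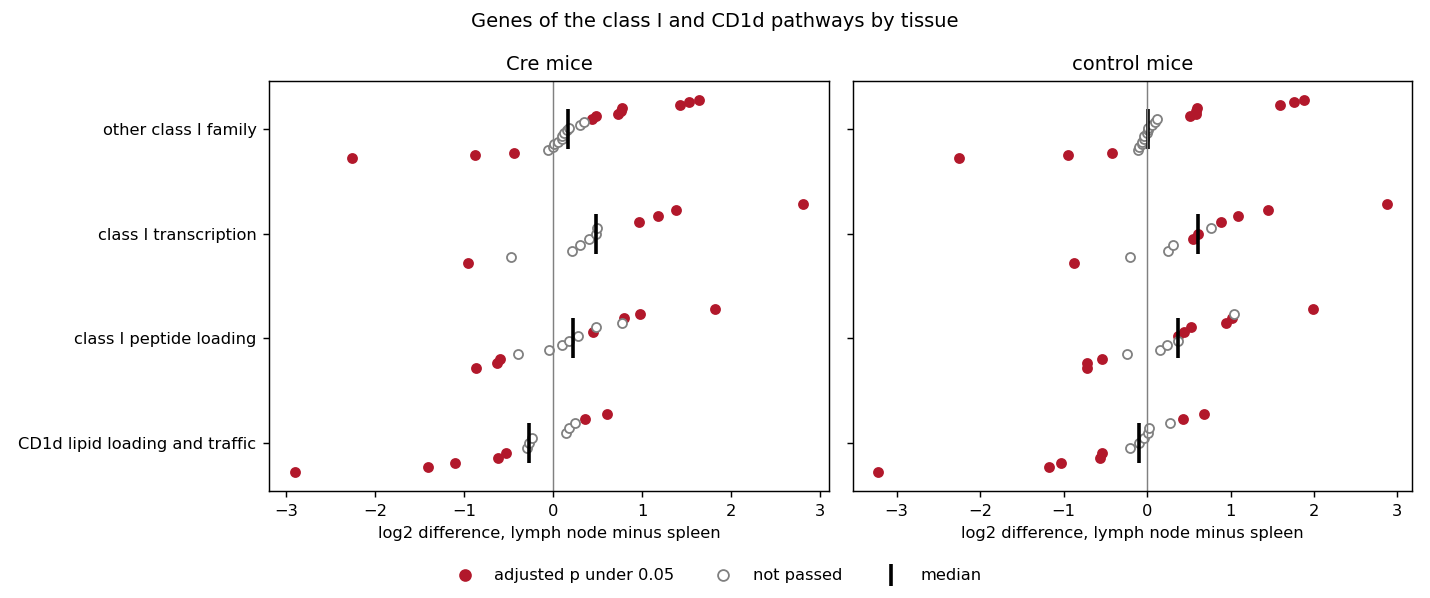
Log2 difference, lymph node minus spleen, of each measured gene of 4 lists in Cre mice (left) and control mice (right); filled points passed at an adjusted p under 0.05 and bars are medians. Irf1, at 2.82 in Cre and 2.87 in control, lies farthest right and Gm2a, at -2.91 and -3.22, farthest left.

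By likeness of level over the 12 arrays, H2-M2 was closest to Eno3 (r = 0.998), Sdhaf1 (r = 0.998) and Tnni3 (r = 0.997), and 748 of 18079 genes had an r above 0.95 with it. Cd1d1 was closest to Tgfbi (r = 0.993), Csnk1e (r = 0.993) and Rrp1b (r = 0.993), with 774 genes above 0.95. H2-M3 was closest to Fndc10 (r = 0.967), Fabp4 (r = 0.966) and Zfp60 (r = 0.965), and Mr1 to Acot3 (r = 0.948), Pramel15 (r = 0.942) and Zfp819 (r = 0.919). Levels over these arrays are parted mainly by tissue, so many genes share such a pattern. For deviations from the group means, H2-M2 was closest to Gadd45a (r = 0.953), Cflar (r = 0.945) and Ninj1 (r = 0.930), and 1 gene had an r above 0.95. Probe set 10444780 had 356 such genes, led by Zdhhc18 (r = 0.995), and Cd1d1 had 0, led by Vav3 (r = 0.941). On probe set 10444780 replicate 1 was the lowest array of all 4 groups, and the part of the replicate number in these r values was not tested. All genes named here were picked for a high r over only 12 arrays, and shared regulation was not tested.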

How the data were processed

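RNA from sorted cDC1 was labelled with the WT Pico kit and hybridised to 12 Affymetrix arrays, per the labels' protocols. Linear intensity is what the authors deposited; the submitters' processing notes name RMA and Affymetrix Expression Console without versions. Here log2 was taken of the deposited intensity before any fit. Of 28853 probe sets, 23410 were annotated, 21789 with 1 symbol and 1621 with several; 21698 single symbols matched RefSeq by Entrez number. The brightest probe set was kept for 999 genes with more than 1. Xist was high on all arrays (2522 to 3721). limma 3.58.1 (R 4.3.3) fitted 4 group means, with eBayes trend, two-sided tests and Benjamini-Hochberg adjustment over all 19938 genes, called at an adjusted p under 0.05. The number of arrays limits the precision. Simulated data with known changes tested the fit. The main fit did not pair arrays, so its standard errors, p-values and calls ignore the replicate numbers. Pairing by number entered a fit only in the alternative with a replicate block. Deviations of same-numbered arrays correlated at 0.573 to 0.729 (number 1), 0.309 to 0.449 (number 2) and 0.293 to 0.466 (number 3). Every such pair was over 0.1. Arrays with different numbers correlated at -0.633 to 0.557, a range that reaches above every pair of numbers 2 and 3. Alternatives were the replicate block, centring, a background filter, the mean of probe sets, array weights, no trend and leaving out arrays. Members and gene lists were chosen with earlier results of these data known. Up to 4 examples of each list were those with the greatest absolute difference in the comparison; likeness took the 3 highest correlations among genes above background. Of the marker lists for other cells, Langerhans cells and keratinocytes had 3 of 6 higher and 1 lower in lymph node in Cre and 2 higher and 1 lower in control, cDC2 1 of 6 higher and 1 lower in Cre and 1 higher in control, pDC 1 of 5 higher in Cre and 2 in control, neutrophils 1 of 6 higher in Cre and 0 in control, and NK cells 0 of 6 in both. Among all genes 13.1% were higher and 15.2% lower in Cre, and 12.9% and 13.2% in control, so 1 marker of 6 is near that rate. T cell, macrophage and monocyte, and B cell markers are in the results.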

Additional observations from a re-analysis of the deposited data

How the results depend on the processing

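Signs and sides of the threshold for Cd1d1 and for the shared probe set 10450075 between tissues held under every alternative run, and no genotype result of a member was called under any. With array weights the genes called came to 2 in lymph node and 51 in spleen for Cre minus control, 3 for the interaction, and 8933 in Cre and 9020 in control for lymph node minus spleen. Leaving out arrays gave 3081 to 7684 genes in Cre and 2865 to 6906 in control between tissues, and 0 for both genotype comparisons and the interaction; all of replicate 3 left out gave 3094 in Cre and 2865 in control, and all of replicate 2 gave 3081 in Cre and 3093 in control. With the replicate block 8170 genes were called in Cre and 7178 in control between tissues and 0 between genotypes; among members it changed the call of Mr1 in Cre alone. Genotype differences of members near 0 changed sign. With array weights H2-M3 in lymph node was 0.064. Leaving out single arrays, the log2 genotype difference ran in lymph node from -0.062 to 0.087 for H2-M2, -0.19 to 0.054 for H2-M3 and -0.31 to 0.092 for Mr1; in spleen from -0.55 to 0.031 for H2-M2, -0.047 to 0.10 for H2-M3 and -0.069 to 0.085 for probe set 10444780; and the interaction from -0.010 to 0.57 for H2-M2, -0.23 to 0.017 for H2-M3 and -0.23 to 0.043 for Cd1d1. Without all of replicate 1 the lymph node difference was 0.016 for H2-M3, -0.037 for Cd1d1 and 0.052 for Mr1. Without all of replicate 2 it was -0.063 for H2-M2 and 0.0044 for Mr1 in lymph node, -0.032 for H2-M3 and -0.026 for probe set 10444780 in spleen, and the interaction of probe set 10450075 was -0.0029. Without all of replicate 3 Cd1d1 reached 0.29 in lymph node and 0.36 in spleen, neither called. The cause of these shifts was not tested. Leaving out a replicate number leaves 2 arrays a group.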
